A study of Danio rerio with 12 samples.

Results

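The 10 zebrafish genes described here encode the enzymes that separate glucose production from glucose use, together with a coactivator that controls the producing side. They are the phosphoenolpyruvate carboxykinases pck1 and pck2, the fructose bisphosphatases fbp1a, fbp1b and fbp2, the glucose-6-phosphatase catalytic subunits g6pca.1, g6pca.2 and g6pcb, the transcriptional coactivator ppargc1a, and glucokinase, gck. They were taken by gene name from a count table of 32266 genes, and each name matched 1 row. The members were chosen by their levels in this comparison, in which pck1 was low and gck high in rb1 mutant heads relative to wild type, so the values of its members in that contrast are given as a description and carry no test.

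The samples were larval heads of WIK zebrafish at 5 days post fertilization (dpf), either homozygous for the rb1Δ7 deletion (rb1-/-, rb1Δ7/Δ7) or +/+. Larvae of both genotypes came from crosses between rb1Δ7/+ parents, and each larva was genotyped from its trunk. The deletion is carried in the germline and so in every tissue, and rb1Δ7/Δ7 larvae have no swim bladder at this age and do not live to adulthood. Total RNA from 3 pools of 5 heads of each genotype gave 6 libraries, each read on 2 lanes that were summed here. No treatment, feeding state or feeding time is named in the labels.

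Gluconeogenesis builds glucose from lactate, amino acids and glycerol, mainly in liver and kidney. On the route from lactate and amino acids, phosphoenolpyruvate carboxykinase catalyses an early step. Fructose bisphosphatase opposes the committed step of glycolysis, and glucose-6-phosphatase in the endoplasmic reticulum releases free glucose into the blood. Glucokinase opposes the last of these reactions by phosphorylating glucose, trapping it in hepatocytes and serving as the glucose sensor of pancreatic beta cells. In vertebrate liver, fasting, glucagon and glucocorticoids raise the carboxykinase and glucose-6-phosphatase genes, whereas feeding and insulin lower them and raise glucokinase.

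Library totals lay between 41065256 and 47700950 counts, and the lanes of a library differed by no more than sampling noise. rb1, the mutated gene, measured 10.3 ± 1.14 counts per 1000000 (CPM, SD, n = 3 pools) in the mutant pools and 22.0 ± 4.36 in the +/+ pools, with no overlap (log2 fold change -1.09, edgeR quasi-likelihood adjusted p = 0.0121, and 0.00614 with the pool number as a block). This is a check of the labels on RNA level only. All 15 brain and retina markers were detected in every library, opn1sw1, the ultraviolet cone opsin, being the most abundant per length. They summed to 12347, 12539 and 14364 CPM in the mutant pools and 16129, 15758 and 14762 CPM in the +/+ pools. Their median log2 fold change was -0.11, with 9 below 0 and 6 above. In 4 every mutant pool lay below every +/+ pool and in 1 above (13.2% and 16.1% of all tested genes). A call needed a difference of 1.5-fold or more and an edgeR p, adjusted over all genes by Benjamini-Hochberg, no higher than 0.01. Of the 22753 genes tested, 269 met this (1.18%). Of the 15 brain and retina markers 0 met it. DESeq2, an alternative to edgeR, called 2 of these 15 lower and 0 higher (background 1.98% and 2.81%). The median log2 fold change of all tested genes was -0.01.

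All 10 members passed the filter on low counts. pck1 was lower and gck was higher in the mutant pools past the threshold, and the other 8 were on neither side of it. The background was 0.286% of all tested genes called lower and 0.897% called higher. With the pool number as a block the same members were past the threshold (background 0.281% lower and 0.747% higher). In DESeq2 they were joined by g6pca.1 and g6pca.2 on the lower side (background 1.98% lower and 2.81% higher). In 5 members every mutant pool lay below every +/+ pool, in 1 member every mutant pool lay above, and 4 overlapped. Among all tested genes 13.2% had the mutant pools entirely below and 16.1% entirely above. The median log2 fold change of the members was -0.58, with 8 below 0 and 2 above. Since the contrast chose the set, nothing is read from these shares. In whole heads fewer cells of a type and less RNA per cell cannot be told apart.

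**Figure D1:**
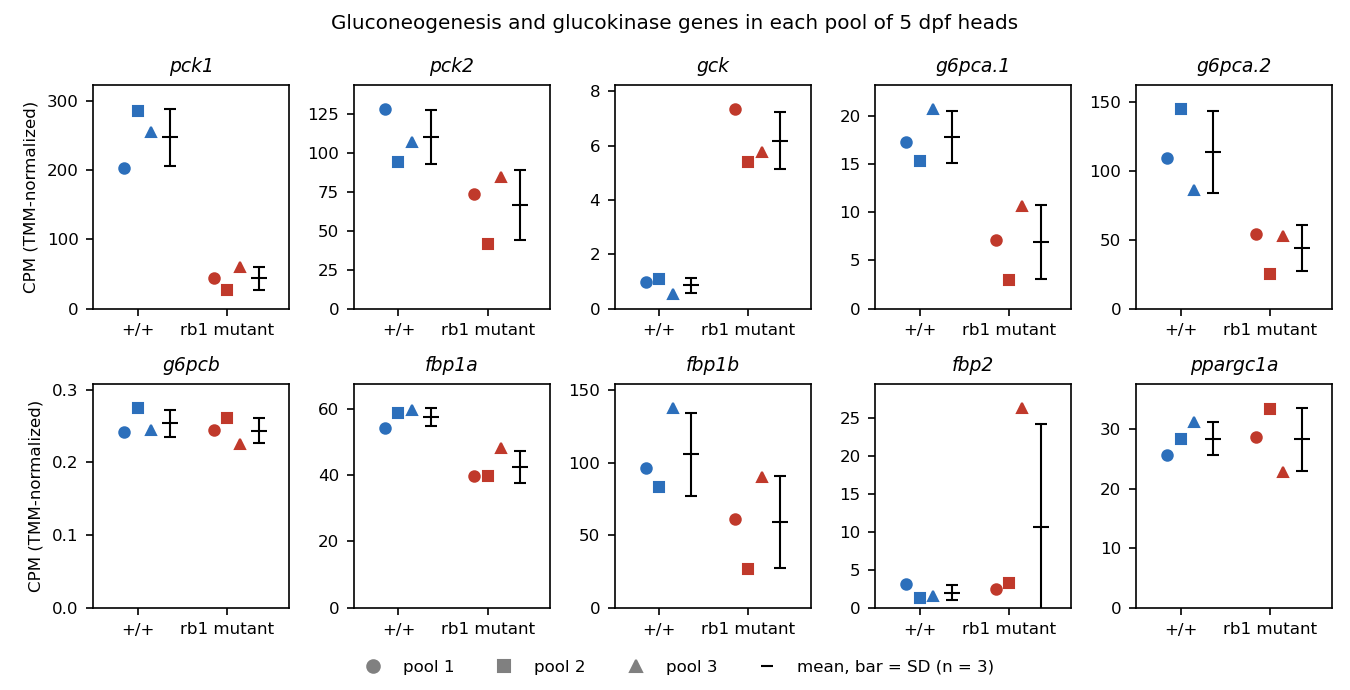
CPM (TMM-normalized, linear axes from 0) of each member in the 3 +/+ pools (blue) and the 3 rb1 mutant pools (red), with symbols for pool numbers and black bars for mean and SD. pck1 and gck separate most widely between genotypes, and the high mean of fbp2 in mutants comes from pool 3 alone.

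pck1 (ENSDARG00000013522), the cytosolic carboxykinase that turns oxaloacetate into phosphoenolpyruvate, measured 43.6, 27.2 and 59.9 CPM in mutant pools 1, 2 and 3. In the +/+ pools it measured 203.7, 285.5 and 254.6 CPM. The highest mutant pool was far below the lowest +/+ pool, and mutant pool 2 was the lowest of all. Group means were 43.6 ± 16.4 and 247.9 ± 41.3 CPM (SD, n = 3 each), a 5.69-fold lower level in mutants with a log2 fold change of -2.51 ± 0.28 (SE). These values rest on 1358 to 2657 counts per mutant library and 9275 to 11456 per +/+ library, so counting error is small beside the spread between pools.

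pck2 (ENSDARG00000020956), the mitochondrial carboxykinase, measured 73.7, 41.5 and 84.9 CPM in the mutant pools and 128.7, 94.5 and 107.2 CPM in the +/+ pools. The genotypes did not overlap, although mutant pool 3 and +/+ pool 2 were close. The log2 fold change was -0.72 ± 0.25 (SE), not past the threshold. Compared per exonic length as FPKM (fragments per kilobase of exon per 1000000 mapped reads), pck1 was 1.87, 3.56 and 2.80 times pck2 in the +/+ pools. In the mutant pools the ratio was 0.698, 0.773 and 0.832, so the mitochondrial form was the more abundant of the pair in all 3 mutant pools and the cytosolic form in all 3 +/+ pools.

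g6pca.1 (ENSDARG00000031616) and g6pca.2 (ENSDARG00000013721) encode catalytic subunits of glucose-6-phosphatase. g6pca.1 measured 7.12, 2.95 and 10.6 CPM in the mutant pools and 17.3, 15.3 and 20.8 CPM in the +/+ pools. g6pca.2 measured 54.4, 24.9 and 52.6 CPM in the mutant pools and 109.3, 145.2 and 86.3 CPM in the +/+ pools. Neither gene overlapped between genotypes, and mutant pool 2 was the lowest library for both. Their log2 fold changes were alike, -1.37 ± 0.39 (SE) for g6pca.1 and -1.37 ± 0.31 for g6pca.2, and neither was past the threshold in edgeR. DESeq2, run as an alternative, called both lower.

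g6pca.2 was the more abundant of the pair in 6 of 6 libraries. Its FPKM was 3.24 ± 0.841 (SD, n = 3) times that of g6pca.1 in mutants and 3.07 ± 1.24 times in +/+, ranges that overlapped. Reads that fit near-identical copies equally well were dropped before counting, so levels of related genes such as these may be understated and their ratio is uncertain. The third subunit gene, g6pcb (ENSDARG00000014967), had 10 to 13 counts in every library, 0.245, 0.261 and 0.226 CPM in mutants and 0.242, 0.275 and 0.244 CPM in +/+. At this depth no difference was detectable in g6pcb (log2 fold change -0.05 ± 0.27).

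None of the fructose bisphosphatase genes was past the threshold. fbp1a (ENSDARG00000021366) measured 39.7, 39.6 and 48.0 CPM in the mutant pools and 54.3, 58.6 and 59.5 CPM in the +/+ pools. It had no overlap and a small log2 fold change of -0.44 ± 0.10 (SE), below the 1.5-fold limit. fbp1b (ENSDARG00000020364) measured 61.3, 27.0 and 90.3 CPM in mutants and 96.3, 83.4 and 137.9 CPM in +/+. Mutant pool 3 reached into the +/+ range, and the log2 fold change of -0.83 ± 0.40 was little more than 2 of its standard errors.

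fbp2 (ENSDARG00000012366), named for the muscle isozyme of mammals, measured 2.43, 3.33 and 26.3 CPM in the mutant pools and 3.12, 1.28 and 1.53 CPM in the +/+ pools. Mutant pool 3 stood alone, 10.8 times the lowest mutant pool, while the other mutant pools were near the +/+ pools. The log2 fold change of 2.42 ± 0.91 (SE) dropped to 0.54 when mutant pool 3 was left out. That library also held the highest level of ins, the insulin gene (23.0 CPM, against 2.55 and 3.37 in the other mutant pools and 5.89 to 12.3 in +/+). Summed exocrine pancreas markers, of which ctrb1, a chymotrypsinogen, was the most abundant per length in +/+ heads, were 3389 CPM there, against 998.4 and 458.5 CPM in the other mutant pools and 1428 to 2835 in +/+. Skeletal muscle markers summed to 12642 CPM in the same library, within the +/+ range of 11339 to 14828, and mylpfa, a myosin light chain, was the most abundant of them per length in +/+ heads. The part of these other tissues in the fbp2 value was not tested. fbp2 lies next to fbp1a in the RefSeq annotation of assembly GRCz12tu, and whether the counting used strand is not given in the sources used here.

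gck (ENSDARG00000068006) ran opposite to the carboxykinases. It measured 7.37, 5.39 and 5.77 CPM in the mutant pools and 0.966, 1.08 and 0.556 CPM in the +/+ pools. Every mutant pool was several times the highest +/+ pool. Group means were 6.18 ± 1.05 and 0.866 ± 0.274 CPM (SD, n = 3), a fitted 7.14-fold higher level in mutants and a log2 fold change of 2.84 ± 0.26 (SE). Counts were 256 to 361 per mutant library and 25 to 44 per +/+ library. Even in mutants gck was a rare transcript beside hk1, the hexokinase found in most tissues, whose FPKM was 13.1, 16.9 and 16.0 times that of gck in mutant pools and 91.8, 74.0 and 168.4 times in +/+ pools. hk1 itself measured 145.2 ± 4.29 CPM in mutants and 136.2 ± 11.2 in +/+ (log2 fold change 0.09, edgeR adjusted p = 0.617).

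ppargc1a (ENSDARG00000067829), whose product drives mitochondrial biogenesis in many tissues and gluconeogenic transcription in liver, measured 28.7, 33.4 and 22.8 CPM in mutants and 25.6, 28.3 and 31.3 CPM in +/+. The pools of both genotypes were interleaved, with a log2 fold change of -0.01 ± 0.15 (SE).

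**Figure D2:**
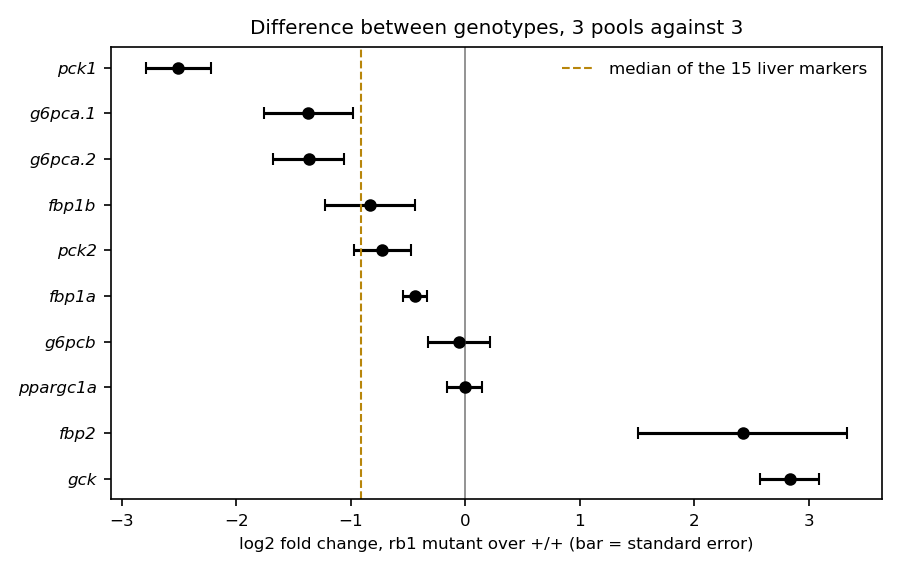
Log2 fold change of each member, rb1 mutant over +/+, with standard errors from edgeR (3 pools against 3). The dashed line is the median of the 15 liver markers, -0.91, and pck1 lies well below it while gck lies furthest above 0.

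Leaving out single libraries changed the sign only for ppargc1a (-0.14 to 0.13) and g6pcb (-0.10 to 0.005), both near 0. For the other members it moved the size of the difference and not its sign. The pck1 log2 fold change ranged from -2.81 to -2.26 and the gck log2 fold change from 2.60 to 3.01 over the 6 fits that omitted 1 library. Both fell short of the threshold without mutant pool 1 (-2.51 for pck1, 2.69 for gck), +/+ pool 2 (-2.40 and 3.01) or +/+ pool 3 (-2.49 and 2.60). Those fits called only 35, 3 and 1 genes among all tested. Without mutant pool 2, the lowest of the 3 mutant libraries for 7 of the 10 members, the log2 fold change was -2.26 for pck1, -0.47 for pck2, -1.01 for g6pca.1, -1.08 for g6pca.2, -0.48 for fbp1b and 2.93 for gck.

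Levels between genes were compared as deposited FPKM. In +/+ heads pck1 was the most abundant member at 83.9 (68.7 to 96.0 over the 3 pools), followed by fbp1b at 64.0 (50.02 to 84.0), and these overlapped. Next came g6pca.2 at 37.2, fbp1a at 34.8 and pck2 at 31.6, whose neighbours in the order also overlapped. g6pca.1 at 12.6, ppargc1a at 9.52 and fbp2 at 1.49 followed without overlap, and gck at 0.325 (0.211 to 0.401) could not be separated from g6pcb at 0.212. At this level gck was near the bottom of the set in +/+ heads.

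In mutant heads fbp1b led at 37.0 FPKM, then fbp1a at 26.7, pck2 at 19.8, pck1 at 15.2 and g6pca.2 at 14.9. pck1 had thus moved from first place in +/+ to below fbp1b, fbp1a and pck2, although most neighbours overlapped over their pools. ppargc1a at 9.91, fbp2 at 8.17 and g6pca.1 at 5.03 came next. gck at 2.42 FPKM (2.17 to 2.90) now lay clear of g6pcb at 0.213.

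**Figure D3:**
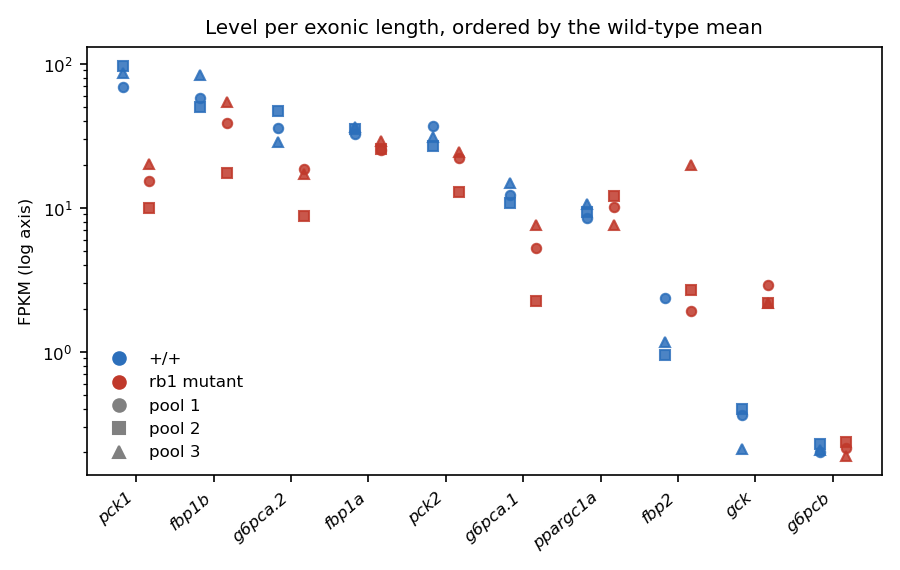
FPKM of each member (log axis), ordered by its +/+ mean, in the 3 +/+ pools (blue) and the 3 rb1 mutant pools (red). pck1 drops from the top of the order in +/+ to the middle in mutants, and gck rises from the level of g6pcb to about 2.42 FPKM.

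The spread between pools of the same genotype was wide for most members. For pck1 and gck it may not be independent of the choice, since a call weighs a difference against this spread. The within-genotype SD of log2(CPM + 1) was 1.20 for fbp2, 0.67 for fbp1b, 0.58 for g6pca.1, 0.51 for g6pca.2, 0.43 for pck1 and 0.41 for pck2, against a median of 0.14 over all tested genes. These lie at the 99.9th, 98.8th, 98.3rd, 97.6th, 96.4th and 95.9th percentiles of the tested genes. ppargc1a and gck, both at 0.21, lay at the 76.9th and 76.8th percentiles, fbp1a at the 37.2nd (0.12) and g6pcb at the 0.207th (0.02). The low levels of g6pcb and of gck in +/+ heads, near or below the added 1 CPM, compress this scale. The ratio of the highest to the lowest pool, which needs no added 1, was 1.94 for gck in +/+ and 1.37 in mutants. For pck1 it was 1.40 and 2.20. The median percentile was 96.1 for the members, 99.1 for the liver markers and 76.7 for the brain and retina markers. Both carboxykinase genes, g6pca.1, g6pca.2, fbp1b and fbp2 thus lay at or above the 95.9th percentile, and the place of gck is not comparable with theirs.

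Liver is the main site of most of these enzymes, so its markers were measured in the same libraries. The 15 liver markers, with apoa2, an apolipoprotein, the most abundant per length, summed to 3923, 1262 and 4238 CPM in the mutant pools and 7220, 5157 and 5924 CPM in the +/+ pools. All 15 had log2 fold changes below 0 (median -0.91, from -1.35 to -0.73), against 51.8% of all tested genes. In 12 every mutant pool lay below every +/+ pool (background 13.2%), none was at 0 in any library and 0 passed the edgeR threshold. At an unadjusted p under 0.05 edgeR counted 8 of the 15. The share of all tested genes at that cut is not given, so nothing is read from such counts, here or below. DESeq2 called 2 lower, fabp10a and cp, and 0 higher (background 1.98% and 2.81%). Mutant pool 2 was the lowest mutant library for all 15, and the liver median was -0.59 without it. How much liver each dissection carried was not recorded in the labels.

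Dividing each member by the summed liver markers of its own library gives a second scale, chosen after the data were seen. pck1 measured 11.1, 21.6 and 14.1 CPM per 1000 CPM of liver markers in the mutant pools and 28.2, 55.4 and 43.0 in the +/+ pools. These still did not overlap, and the 5.69-fold difference became 2.70-fold. gck measured 1.88, 4.27 and 1.36 per 1000 in mutants and 0.134, 0.209 and 0.094 in +/+, a 17.2-fold difference. The divisor averaged 3141 CPM in mutants and 6101 in +/+, which moves every member upward in mutants and so widens the gck difference. ppargc1a and g6pcb, with log2 fold changes of -0.01 and -0.05 in CPM, became 2.73-fold and 2.51-fold higher, with overlap between genotypes.

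The other members whose mutant pools all lay lower in CPM overlapped or turned on this scale. g6pca.1 (1.82, 2.33 and 2.51 per 1000 in mutants, 2.40, 2.97 and 3.50 in +/+) and g6pca.2 (13.9, 19.7 and 12.4 against 15.1, 28.2 and 14.6) overlapped, and fbp1b, which overlapped on the CPM scale too, still did (15.6, 21.4 and 21.3 against 13.3, 16.2 and 23.3). pck2 lay above +/+ in every mutant pool (18.8, 32.9 and 20.04 against 17.8, 18.3 and 18.1). On this scale 1 member, pck1, lay below +/+ in every mutant pool, and 3 lay above, gck, pck2 and fbp2. The highest mutant divisor, 4238 CPM, was below the lowest +/+ divisor, 5157 CPM. A gene with equal CPM in all pools would therefore lie above +/+ in every mutant pool. The share of all genes above or below on this scale is not given, so nothing is read from these counts. The part of liver in these results was not tested.

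**Figure D4:**
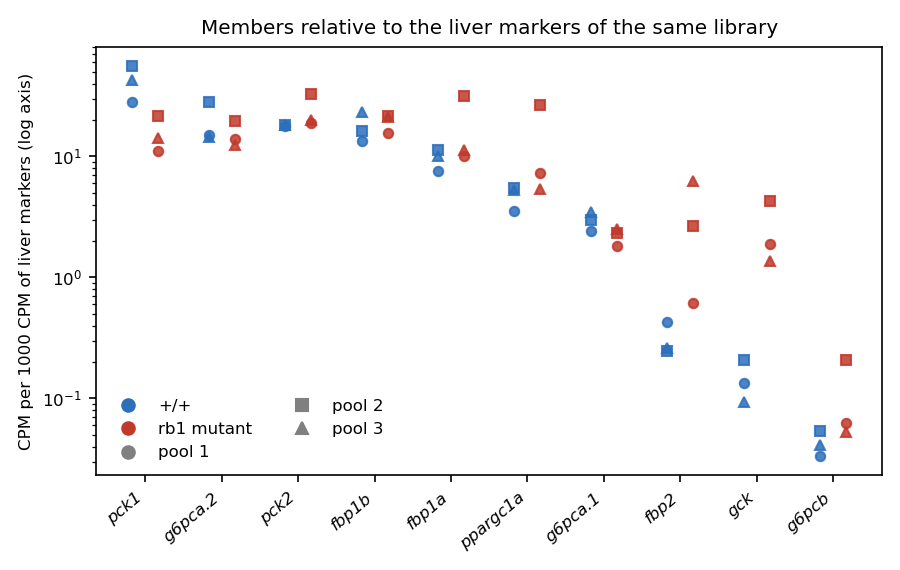
Members per 1000 CPM of the summed liver markers of the same library (log axis), ordered by the +/+ mean, in +/+ (blue) and rb1 mutant (red) pools. pck1 remains lower and gck higher in all 3 mutant pools, while g6pca.1, g6pca.2 and fbp1b overlap between genotypes.

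Other organs were measured in the same way, and the gene said to lead a list is its most abundant per length in +/+ heads. Exocrine pancreas markers had a median log2 fold change of -0.37 with 0 of 11 apart between genotypes. Intestine markers, led by apoa1a, summed to 170.2 to 578.3 CPM in mutants and 520.8 to 923.0 in +/+. Their median was -0.50 over 9 tested genes, with 1 entirely lower in the mutant pools (background 13.2%) and 0 entirely higher. Pronephros markers, led by slc4a4a, summed to 329.7 to 367.1 CPM in mutants and 391.4 to 395.6 in +/+. Their median was -0.14, with 2 of 12 genes entirely lower in the mutant pools (background 13.2%) and 0 entirely higher. Skeletal muscle markers had a median of -0.14, with 0 of 12 apart. Ionocyte markers, led by atp6v1aa, had a median of -0.37, with 5 of 10 entirely lower (background 13.2%) and 0 entirely higher. In edgeR 5 of these 10 had an unadjusted p under 0.05, all 5 lower. The endocrine pancreas list had a median of 0.12, and 6 of its 8 genes overlapped between genotypes, ins among them. isl1, its most abundant gene, was higher in every mutant pool and pcsk1, a prohormone convertase, was lower in every mutant pool. isl1 averaged 91.6 CPM in mutants and 74.9 in +/+, against 9.64 and 8.98 for ins. Which tissue of the head the isl1 and pcsk1 transcripts came from was not tested. In edgeR 0 genes of these 6 lists were called and 10 had an unadjusted p under 0.05. DESeq2 called 3, all lower (background 1.98% lower and 2.81% higher). Markers of proliferating cells, led by pcna, were higher in every mutant pool for 8 of 8 genes (background 16.1%), with a median log2 fold change of 1.14. Of them mki67, top2a, ccnb1 and cdk1 were called (background 0.897% higher), and top2a was lost with the pool block (edgeR adjusted p = 0.0116). Their part in the gck level was not tested.

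The lists that follow are background groupings around the pathway, chosen with earlier results in view, and some genes stand in more than 1 of them. Over all tested genes 0.286% were called lower and 0.897% higher, and 13.2% lay entirely below and 16.1% entirely above in the mutant pools. The share of all tested genes at an unadjusted p under 0.05 is not given, so nothing is read from counts at that cut. Many genes passed it, as slc2a3a at an unadjusted edgeR p of 0.0346 had an adjusted p of 0.176. Of the 21 other genes for the steps of gluconeogenesis and glucose release, 0 were called in either direction (2 had no overlap and were higher, 5 had none and were lower), with a median log2 fold change of -0.15. Among those with the smallest p was g6pc3, the glucose-6-phosphatase subunit of most tissues. g6pc3 measured 5.98, 5.55 and 7.02 CPM in mutants and 4.55, 4.45 and 4.31 CPM in +/+ (log2 fold change 0.48 ± 0.13, edgeR adjusted p = 0.0827), above +/+ in all 3 mutant pools while g6pca.1 and g6pca.2 lay below.

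With the pool number as a block, tat alone of these 21 genes was called lower (edgeR adjusted p = 0.00483, and 0.0841 without the block). tat, tyrosine aminotransferase, feeds amino acid carbon into the pathway. It measured 21.4, 14.2 and 70.9 CPM in mutants and 99.5, 130.9 and 383.3 CPM in +/+, with pool 3 the highest of its genotype in both. DESeq2 called 1 gene of the list lower and 0 higher (background 1.98% and 2.81%), and 5 had an unadjusted edgeR p under 0.05.

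Of 14 hexokinase, glucokinase partner and glucose transporter genes tested, 0 were called (median log2 fold change -0.21). The transporters slc2a1a (log2 fold change -0.51 ± 0.15, edgeR adjusted p = 0.0985) and slc2a3a (-0.25 ± 0.10, adjusted p = 0.176) had the smallest p, and in both every mutant pool was below every +/+ pool. At an unadjusted p under 0.05 edgeR counted 4 of the 14, and DESeq2 called 0.

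Among 24 regulators of gluconeogenic transcription 1 was called, klf15, a factor that directs amino acid catabolism toward glucose in mammalian liver. klf15 measured 26.6, 24.2 and 27.5 CPM in mutants and 42.5, 51.3 and 47.7 CPM in +/+, with narrow spread in both genotypes (log2 fold change -0.85 ± 0.10, edgeR adjusted p = 0.00589). With the pool block it was just outside (adjusted p = 0.0123). The list median was -0.17, and ppargc1a, its coactivator among the members, did not share the klf15 difference. In 4 of the 24 every mutant pool lay below every +/+ pool and in 2 above (background 13.2% and 16.1%). DESeq2 called 3 of the 24 lower and 0 higher (background 1.98% and 2.81%). In edgeR 7 had an unadjusted p under 0.05, of them 5 lower.

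Of 27 genes that fasting raises in other vertebrates, 2 were called lower and 0 higher, 14 had all mutant pools below all +/+ pools against a background of 13.2%, and 23 had log2 fold changes below 0 against 51.8% of all tested genes (median -0.31). Both called genes encode pyruvate dehydrogenase kinases, which hold back pyruvate from oxidation. pdk2b fell from 152.0, 185.1 and 157.6 CPM in +/+ to 65.5, 64.4 and 54.2 in mutants (log2 fold change -1.43 ± 0.12, edgeR adjusted p = 0.00169). pdk2a fell from 214.1, 191.9 and 177.3 CPM to 114.3, 105.8 and 105.1 (-0.84 ± 0.10, adjusted p = 0.00609). With the pool block tat was called as well, making 3. DESeq2 called 6 of the 27 lower and 0 higher (background 1.98% and 2.81%). In edgeR 14 had an unadjusted p under 0.05, of them 13 lower.

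The genes listed from background knowledge as raised by feeding or insulin also lay mostly lower. Of 18 tested, 1 was called lower and 0 higher, and the median log2 fold change was -0.13. In 7 all mutant pools lay below all +/+ pools, against a background of 13.2%, and in 1 all lay above, against 16.1%. Log2 fold changes were below 0 in 14, against 51.8% of all tested genes. DESeq2 called 4 of the 18 lower and 1 higher (background 1.98% and 2.81%). In edgeR 8 had an unadjusted p under 0.05, of them 7 lower. The gene called in edgeR was lpin1, the phosphatidate phosphatase lipin. It fell from 139.8, 244.5 and 149.8 CPM in +/+ to 39.2, 57.7 and 58.2 in mutants (-1.78 ± 0.25, edgeR adjusted p = 0.00986). The place of lpin1 among genes raised by feeding is uncertain, and no response to feeding was measured here. With the pool block pfkfb3, a bifunctional enzyme that promotes glycolysis, was also called lower (adjusted p = 0.00826, and 0.025 without the block). How the gck level relates to the levels of lpin1 and pfkfb3 was not tested.

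Of 13 glucocorticoid responsive genes tested, all 13 had log2 fold changes below 0, against 51.8% of all tested genes. hsd3b2, listed but below the filter on low counts, lay the other way, with 10, 14 and 13 counts in mutants and 4, 7 and 6 in +/+. The 13 tested genes ran from -1.90 to -0.01 (median -0.77), so some hardly differed. DESeq2 called 4 of the 13 lower and 0 higher (background 1.98% and 2.81%), and 7 had an unadjusted edgeR p under 0.05, all 7 lower. In 6 every mutant pool lay below every +/+ pool (background 13.2%), and pdk2b alone was called in edgeR (background 0.286% lower). With the pool block fkbp5, a chaperone that glucocorticoids induce (92.5, 153.7 and 44.4 CPM in mutants, 382.0, 503.2 and 197.0 in +/+, adjusted p = 0.00426, and 0.0623 without the block), and klf9 (32.4, 60.5 and 17.1 against 93.2, 183.4 and 95.5 CPM, adjusted p = 0.00959, and 0.0675) were called too, making 3 in edgeR. For both, mutant pool 3 was the lowest library, where pck1, pck2, g6pca.1 and fbp1b were at their highest among mutants. The summed liver markers were also at their highest mutant level in that pool (4238 CPM). How these levels relate was not tested, and this is 1 pool.

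**Figure D5:**
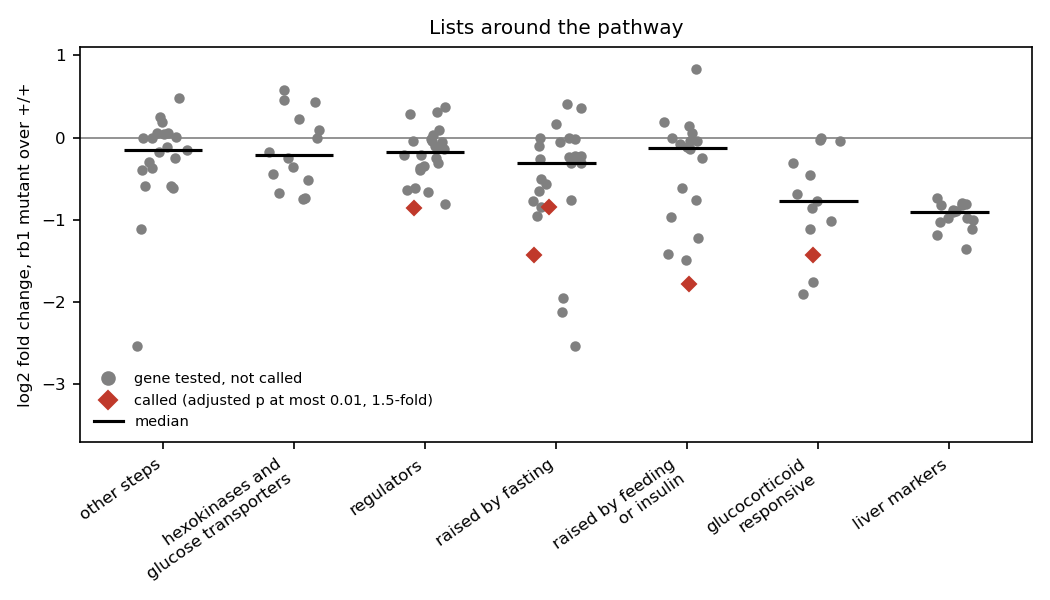
Log2 fold change, rb1 mutant over +/+, of each tested gene of 6 lists around the pathway and of the liver markers, with medians as black bars and called genes as red diamonds. The medians lie between -0.13 and -0.77 for the pathway lists and at -0.91 for the liver markers, and pdk2b appears in 2 lists.

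As a description of pattern, the tested genes outside the lists whose log2 CPM followed pck1 most closely over the 6 libraries were BX890590.1 (Pearson r = 0.998), slc25a18, a mitochondrial carrier gene (0.997), and sst6, a somatostatin family gene (0.996). Those closest to gck were hes2.2, a hairy and enhancer of split family gene (0.998), nup205, a nuclear pore subunit (0.997), and dctd, a deoxycytidylate deaminase (0.997). The 6 points share the genotype split, and 339 genes reached an r of 0.95 or more with pck1 and 716 with gck. Their differences were small beside those of the members. slc25a18 measured 20.9, 19.98 and 21.8 CPM in mutants and 26.4, 27.3 and 26.5 in +/+, a log2 fold change of -0.36 against -2.51 for pck1. nup205 measured 108.9, 104.9 and 103.1 CPM in mutants and 73.5, 73.5 and 69.1 in +/+, a log2 fold change of 0.55 against 2.84 for gck.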

How the data were processed

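RNA from 3 pools of 5 dissected heads per genotype was sequenced, single end, on 2 lanes per library. Alignment by the authors used GSNAP and GRCz10, and reads with a unique alignment were counted per gene in HTSeq; the deposited counts are not normalized. The authors computed the deposited FPKM from those counts, exonic gene length and mapped reads, and recomputing it matched to a relative difference of at most 1.11e-07. A deposited table of the authors' own DESeq2 fold changes and p-values was not used.

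Lanes were summed per library. edgeR 4.0.16 in R 4.3.3 (TMM, filterByExpr, quasi-likelihood, genotype only) tested 22753 of 32266 genes, adjusted by Benjamini-Hochberg over all of them, and was tested on simulated data. CPM is TMM-normalized. Calls used the study's threshold, an adjusted p no higher than 0.01 with a 1.5-fold difference. Pools of different larvae are the replicates. Across genotypes, pools of the same number deviated together (r = 0.412, 0.495 and 0.245), so the pool number was fitted as a block and is given where it changed a call. A fit without 1 library leaves 2 pools in its group.

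Members and lists were chosen with earlier results of these data known. Named genes were all members, rb1, called list genes (the 2 with the smallest p where none was called, 1 of which is not reported here), the most abundant and any called marker, and the 3 genes most like pck1 and gck; hk1, tat, pfkfb3, fkbp5, klf9, ins, pcsk1, fabp10a and cp were added after their values were seen. Alternatives were DESeq2 1.42.0, DESeq2 size factors, totals only, no filter, each lane, the block, each library left out and the scale relative to liver markers. Gene IDs and names come from the files, and RefSeq (GRCz12tu) served for neighbours only. No sequence or coordinate is given.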

Additional observations from a re-analysis of the deposited data

How the results depend on the processing

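The number of genes called was 269 in edgeR, 1107 in DESeq2 and 234 when pool numbers entered as a replicate block, of which 176 were shared with the unblocked fit. Leaving out 1 library gave 1 to 219. The block changed the calls given beside the results (rb1, klf15, tat, pfkfb3, fkbp5, klf9, top2a) and no other call of a gene on the lists. DESeq2 called 3 members lower and 1 higher.

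No member reversed a call under any alternative. Relative to the liver markers the log2 differences were -1.43 for pck1 and 4.11 for gck. They lay on the other side of 0 for pck2 (0.40), fbp1b (0.14), fbp1a (0.87), ppargc1a (1.45) and g6pcb (1.33). The divisor of this scale moves every member upward in mutants. With library totals only, the list median was -0.11 for the regulators and -0.25 for the fasting genes. Leaving out 1 library gave medians of -0.26 to -0.035 for the hexokinases and transporters, -0.21 to -0.072 for the regulators, -0.42 to -0.28 for the fasting genes and -0.23 to -0.070 for the feeding genes, all still below 0. The cause was not tested. Mutant pools 2 and 3 stand apart in tissue markers and each is 1 of only 3, and gck in +/+ and g6pcb rest on few counts.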
